A study of Mus musculus with 10 samples.

Results

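The comparison described here was that of mice with 1 deleted allele against wild type: all genes of the raw counts table in the 3 heterozygous (het) and the 3 wild-type (WT) libraries, which are 6 of the 10 libraries of the series. Each library was made from total RNA of the whole main olfactory epithelium (MOE) at postnatal day 14 of mice labelled C57BL/6, while the study's reporting summary places its mouse lines on a mix of C57BL/6J and 129. Het mice carried 1 intact allele of the Taar cluster and 1 allele from which TAAR enhancer 1 and TAAR enhancer 2 had both been removed with CRISPR-Cas9. WT mice carried 2 intact alleles, and the 4 homozygous (homo) libraries came from mice in which both alleles were deleted. The deletion is that of a single established mouse line, it is present in every tissue, and all 3 het libraries carry the same deleted allele. The study describes the genotypes as littermates, but no label ties a library or a replicate number to a litter, so p-values measure the spread between these samples.

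Volatile amines are detected by the trace amine-associated receptors (TAARs). These form a family apart from the odorant receptors (ORs), and their genes lie in a single cluster. An olfactory sensory neuron (OSN) expresses a single receptor gene, and as a rule from a single allele, so the level of a receptor gene in whole tissue reflects how many neurons chose it as well as how much RNA each of them holds. An enhancer that acts only in cis is expected to affect the genes on its own chromosome. The level at 50% of WT, or -1 on the log2 scale, is therefore used below as the level at which the deleted allele gives nothing and the intact allele gives no more than it does in WT. In these bulk samples fewer TAAR neurons and less TAAR RNA per neuron cannot be told apart.

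Depth was similar in the libraries compared, with 23132889 to 26763599 counts in WT libraries and 22796570 to 24593302 in het libraries, and 19078 to 19371 genes had a count. The mature OSN markers Omp, Gnal, Adcy3 and Cnga2 were abundant in every library (the least was 18010 counts, of Adcy3 in het-1). The deleted enhancers are not counted genes, so the het label cannot be checked on the targeted sequence. The homo libraries had 2 to 5 counts of all olfactory Taar genes together. WT-1 and het-1 had counts of the Y chromosome genes Ddx3y, Eif2s3y, Kdm5d and Uty (5252 and 6236 in sum) and little of the X inactivation transcript Xist (24 and 20 counts). The other 4 libraries had 21360 to 38390 counts of Xist, so the sexes were split in the same way in both genotypes and replicate number 1 differed in sex from numbers 2 and 3. Deviations from the genotype's mean were correlated across 17197 genes between WT and het libraries. With different numbers Pearson's r was -0.265 to -0.104, which positive values for the same number force in part, since deviations within a genotype cancel out. Libraries with the same number deviated together (r 0.403, 0.438 and 0.346). Each comparison is therefore given without pairs, as edgeR's quasi-likelihood test in all 10 libraries, and with the same-numbered WT and het libraries as pairs.

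The Taar family stayed near the WT level in het mice and above 50% of it. The 14 olfactory Taar genes had 915, 901 and 850 counts in sum in the WT libraries and 738, 862 and 759 counts in the het libraries. As counts per 1000000 counts of the library (CPM) these totals were 34.2, 35.2 and 36.7 in WT (35.4 ± 1.29, SD, n = 3) and 32.4, 36.3 and 30.9 in het mice (33.2 ± 2.78, SD, n = 3). The groups overlapped, since het-2 lay between WT-2 and WT-3 while het-1 and het-3 lay below all WT libraries. Among same-numbered libraries het reached 94.7%, 102.9% and 84.0% of WT.

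In the edgeR model the het Taar total was 93.7% of WT, with a 95% interval of 79.03% to 111%. The log2 difference from WT was -0.09 (SE 0.12, edgeR adjusted p = 1.00), so a difference of this size was within the spread between libraries. The log2 difference from the 50% level was 0.91 (SE 0.12, edgeR adjusted p = 1.70e-06), and the interval lay above that level. With pairs the total was 93.6% of WT, with a narrower interval of 82.4% to 106.3%, and the log2 difference from the 50% level was 0.90 (edgeR adjusted p = 5.80e-08). Exact permutation of the CPM values, two-sided, gave p = 0.3 over 3 against 3 libraries and p = 0.5 within the 3 pairs, where the smallest values these designs allow are 0.1 and 0.25. Levels between 79.03% and 111% of WT were thus not told apart by the fit without pairs.

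Part of the cluster consists of near-identical copies, which limits what single genes can show. In the mm10 build the 14 genes lie on chromosome 10 between 23938572 (Taar2) and 24109534 (Taar9), and coding regions are 1014 to 1077 bases long. No 50-base stretch of the coding sequence of Taar2, Taar3, Taar4, Taar5 or Taar9 occurs in another olfactory Taar gene. Of the 50-base stretches of the Taar7 genes 29.5% (Taar7d) to 51.7% (Taar7e) occur in another Taar gene, and of those of the Taar8 genes 50.9% (Taar8a) to 72.5% (Taar8c). The first 90 coding bases of the 5 Taar7 copies, from GENCODE release 21, are shown because a read that lies within them can be told apart only at the 32 positions where the copies differ, which are in capitals.
Taar7a: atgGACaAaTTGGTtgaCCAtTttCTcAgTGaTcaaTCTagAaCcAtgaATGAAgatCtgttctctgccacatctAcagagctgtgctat
Taar7b: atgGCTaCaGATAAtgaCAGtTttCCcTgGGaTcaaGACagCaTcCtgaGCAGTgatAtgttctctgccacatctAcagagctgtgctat
Taar7d: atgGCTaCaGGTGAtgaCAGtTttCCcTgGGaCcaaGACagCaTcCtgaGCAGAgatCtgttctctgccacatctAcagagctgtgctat
Taar7e: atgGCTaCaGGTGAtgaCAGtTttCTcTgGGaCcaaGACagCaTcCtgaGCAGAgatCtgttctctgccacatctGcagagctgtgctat
Taar7f: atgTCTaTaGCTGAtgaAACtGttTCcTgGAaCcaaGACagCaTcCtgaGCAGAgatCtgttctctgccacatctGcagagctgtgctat

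The 3 Taar8 copies do not differ at any of their first 90 coding bases, which are shown for Taar8a. A read that lies wholly within them cannot be assigned to a single copy by its own bases.
Taar8a: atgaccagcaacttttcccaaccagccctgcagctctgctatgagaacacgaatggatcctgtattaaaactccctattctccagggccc

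How reads with several alignments were counted is not given in the sources used here, so the Taar7 and Taar8 genes are uncertain as single genes, and their part in the total depends on that choice. Without the Taar7 and Taar8 genes the total was 90.2% of WT, with an interval of 71.9% to 113.1%, and its log2 difference from the 50% level was 0.85 (edgeR adjusted p = 6.91e-05).

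No single Taar gene passed the test against WT. Of the 14 genes 12 had enough counts to be tested, of which 8 were lower and 4 higher in het mice, with levels of 71.0% to 130.1% of WT and a median log2 difference of -0.12 against -0.00089 for all genes. None had an unadjusted p under 0.05 with or without pairs (edgeR, smallest p 0.156 and 0.095), where 1.92% of all 17197 genes passed without pairs and 6.59% of 16877 genes passed with pairs. The 95% intervals of all 12 genes included 100% of WT. Against the 50% level 9 of the 12 were higher (edgeR, adjusted p 0.00016 to 0.040 over all genes tested), a test that 92.6% of all genes passed, and none was lower. In no Taar gene did the het and WT libraries fail to overlap.

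The 3 genes that could not be told from the 50% level were Taar2, Taar3 and Taar5, whose counts are free of shared sequence. Taar2 had 80, 66 and 76 counts in WT libraries and 50, 73 and 25 in het libraries, and it was at 71.0% of WT (interval 39.4% to 128%). Taar3, a receptor for primary amines such as isoamylamine, had 25, 19 and 32 counts in WT libraries and 13, 23 and 16 in het libraries, at 72.0% of WT (38.2% to 135.8%). Het-3 was lowest for Taar2 and het-1 for Taar3, so the low level did not rest on the same library. Taar5, the receptor for trimethylamine, had 52, 34 and 81 counts in WT libraries and 42, 34 and 46 in het libraries, at 76.3% of WT. Its WT libraries spread more widely than its het libraries. The adjusted p against the 50% level was 0.234, 0.251 and 0.126 for the 3 genes (edgeR), and their intervals included both 50% and 100% of WT.

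Among the other genes without shared copies, Taar4, the receptor for phenylethylamine, had 50, 57 and 47 counts in WT libraries and 58, 80 and 33 in het libraries. The 3 WT values of Taar4 lay inside the range of the het values. Taar9 had 77, 66 and 46 counts in WT libraries and 60, 80 and 67 in het libraries, at 116.8% of WT. Taar6, with 135, 118 and 111 counts in WT libraries and 86, 97 and 115 in het libraries, was at 86.6% of WT (62.5% to 120.0%) and was lower in CPM in all 3 pairs.

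Within the Taar7 genes the copies lay on either side of WT. Taar7a had 98, 141 and 85 counts in WT libraries and 71, 68 and 94 in het libraries, at 76.2% of WT, with the smallest p of the family without pairs (log2 difference -0.39, SE 0.26, edgeR adjusted p = 1.00). Taar7e had 65, 93 and 76 counts in WT libraries and 95, 104 and 89 in het libraries, at 130.1% of WT, with the smallest p with pairs (log2 difference 0.39, SE 0.22, edgeR adjusted p = 0.754). Taar7e was higher in all 3 pairs, but its het-3 CPM lay just below that of WT-2. As a share of the Taar total Taar7e took 8.79% ± 1.61 in WT and 12.2% ± 0.589 in het mice (SD, n = 3), and these shares did not overlap (exact permutation p = 0.1, the smallest possible, 1 of 14 genes compared in this way). Taar7b, Taar7d, Taar7f and Taar8b were at 97.5%, 100.6%, 86.4% and 99.2% of WT. Taar8a and Taar8c had at most 11 counts in any of the 6 libraries and were not tested, and Taar1, which is expressed mainly outside the olfactory epithelium, had 3 counts in these 6 libraries, all of them in het-1.

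**Figure D1:**
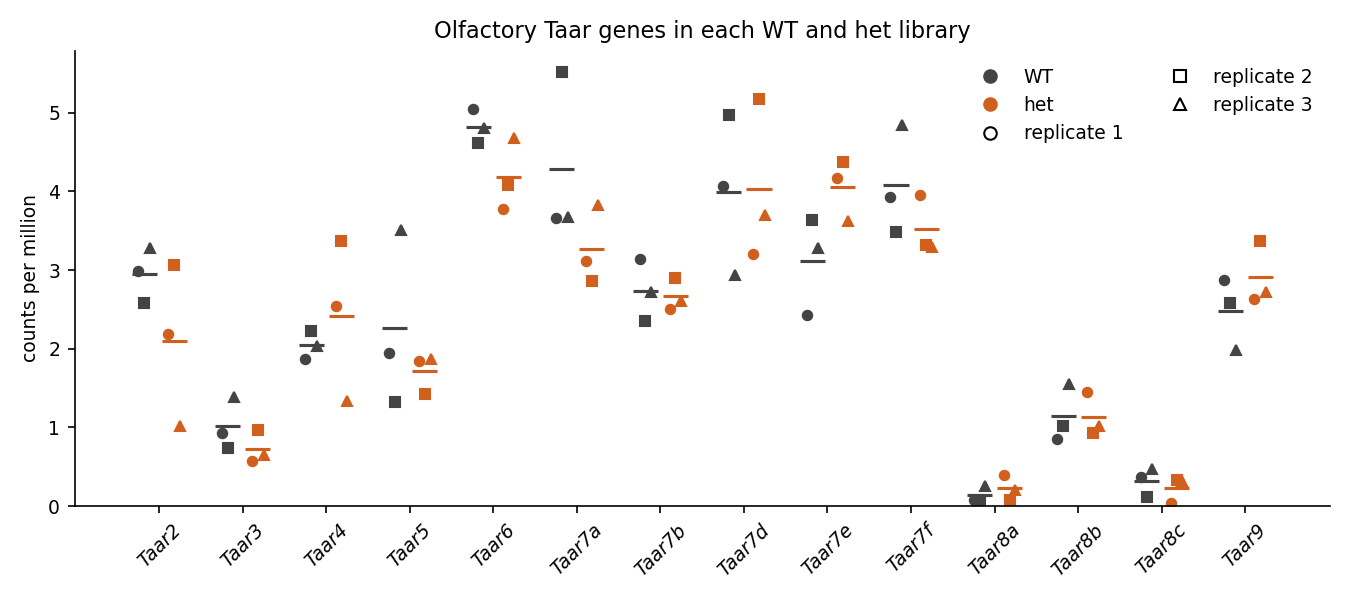
CPM of the 14 olfactory Taar genes in each library, with WT in grey, het in orange, marker shapes for replicate numbers and a bar at the mean of the 3 libraries. Het and WT points overlap for every gene, and Taar8a and Taar8c lie near 0.

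**Figure D2:**
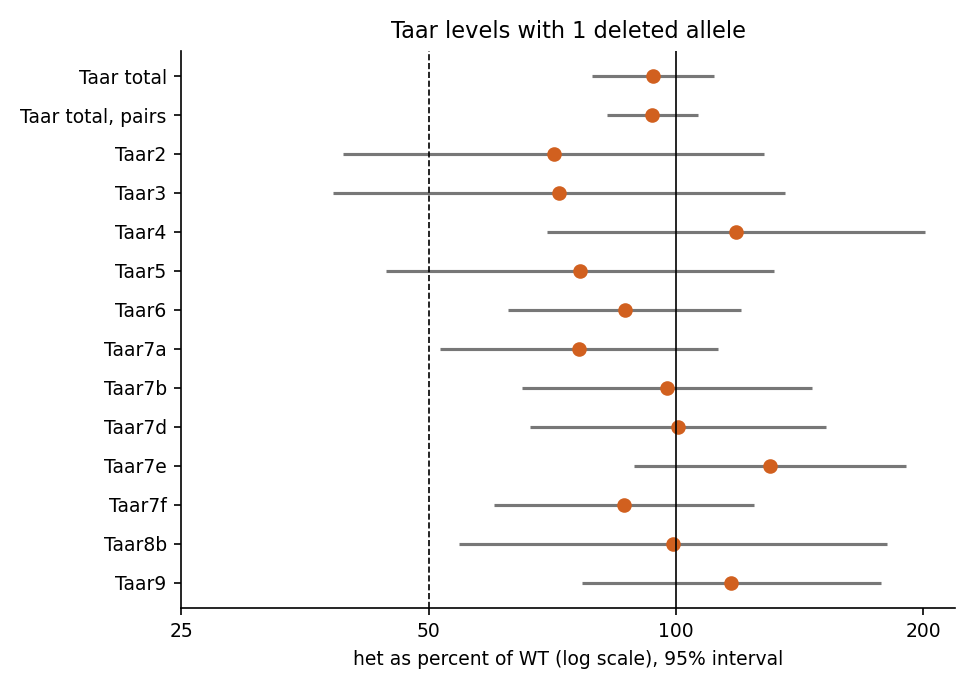
Het level as percent of WT (points, log axis) with the 95% interval (lines) for the Taar total, without and with pairs, and for the 12 Taar genes tested. The solid line marks 100% and the dashed line 50%: the intervals of both totals lie above 50%, and those of Taar2, Taar3 and Taar5 include it.

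The genes Slc18b1, Stx7 and Moxd1 beside the cluster had levels close to WT. Slc18b1, which encodes a vesicular polyamine transporter, was at 101.2% of WT (log2 difference 0.02, SE 0.11). Stx7, which encodes an endosomal syntaxin, was at 100.3% (SE 0.09 on the log2 scale), and Moxd1, a monooxygenase related to dopamine beta-hydroxylase, at 99.1% (SE 0.12). Within 1 Mb on either side of the cluster the table lists 14 genes that are not Taar genes, with Slc18b1, Stx7 and Moxd1 among them. Of the 13 that were tested, none had an unadjusted p under 0.05 without pairs (edgeR, smallest p 0.122), beside 1.92% of all genes. Snora33, Snord100 and Vnn3 were not tested with pairs. None of the others passed with pairs (edgeR, smallest p 0.069), beside 6.59% of all genes. Log2 differences without pairs ran from -1.04 (Snord100, SE 0.65) to 0.78 (Snora33, SE 0.65), so not all of these genes were measured well enough to be placed near WT.

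The ORs, which the other OSNs express, were mostly higher in het mice, and this rested mainly on het-2. The OR total was 3883, 4534 and 4152 CPM in WT (4190 ± 327, SD, n = 3) and 4230, 5454 and 4364 CPM in het mice (4683 ± 671, SD, n = 3). It was higher in het mice in all 3 pairs, at 108.9%, 120.3% and 105.1% of WT, but the groups overlapped (exact permutation p = 0.4, and p = 0.25 within pairs, the smallest possible). Of 1043 OR genes tested, 768 were higher and 275 lower, and the median log2 difference was 0.16. Without het-2 the median was 0.01, and without WT-1, the library with the lowest OR total, it was 0.10.

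Of the single OR genes, 45 were higher and 3 lower at an unadjusted p under 0.05, where 1.05% of all genes were higher and 0.866% lower. With pairs 80 of 1029 were higher and 1 was lower, beside 3.22% and 3.37% of all genes, and none had an adjusted p under 0.05 in either fit. In 67 OR genes all het libraries lay above all WT libraries and in 10 all lay below them, beside 2.94% and 2.28% of all genes. Olfr1275 had 62, 56 and 33 counts in WT libraries and 85, 90 and 85 in het libraries (log2 difference 0.88, SE 0.26, edgeR adjusted p = 1.00). Olfr771 had 49, 61 and 63 counts in WT libraries and 91, 85 and 112 in het libraries, without overlap (log2 difference 0.81). Olfr1372-ps1, a pseudogene with more counts, had 834, 1009 and 891 counts in WT libraries and 992, 1223 and 1029 in het libraries (log2 difference 0.33). The 3 lower genes were Olfr1378, Olfr853 and Olfr172, and the first 2 of these had at most 18 counts in a library. Olfr172 had 84, 83 and 72 counts in WT libraries and 35, 63 and 55 in het libraries (log2 difference -0.56, SE 0.26).

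Because the Taar total was slightly lower and the OR total slightly higher, their ratio separated the genotypes. Taar genes took 0.873%, 0.771% and 0.877% of all receptor counts in WT libraries and 0.760%, 0.660% and 0.702% in het libraries, without overlap. Of all genes 2.28% had all het libraries below all WT libraries in CPM. The het mean was 84.2% of the WT mean and each het library was below its pair, at 87.0%, 85.7% and 80.1%. By exact two-sided permutation p was 0.1 and, within pairs, 0.25, the smallest values that 3 against 3 libraries and 3 pairs allow. The Taar total was also scaled to the OR counts of each library, a scale chosen after these values were seen. On this scale the median of all genes was -0.15 and the het Taar total was 84.1% of WT (67.1% to 105.2%). Its log2 difference from WT was -0.25 (SE 0.15, edgeR adjusted p = 0.777). The log2 difference from the 50% level was 0.75 (edgeR adjusted p = 0.00033).

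**Figure D3:**
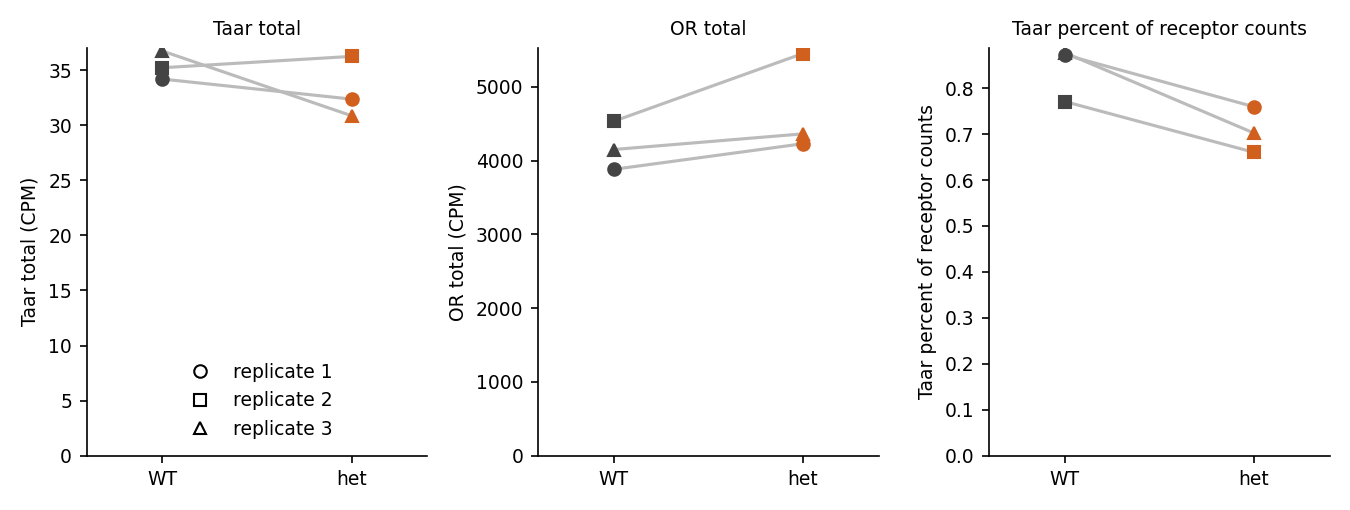
Taar total and OR total in CPM and the Taar share of all receptor counts in percent, for each WT (grey) and het (orange) library, with lines joining the same replicate number and axes from 0. In all 3 pairs the het library is above its WT library in OR total and below it in Taar share, and in 2 of 3 pairs it is below in Taar total.

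Over the rest of the transcriptome no gene passed the test without pairs. With edgeR 0 of 17197 genes (0% of genes tested) had an adjusted p under 0.05 and 330 had an unadjusted p under 0.05, of which 181 were higher and 149 lower. DESeq2 gave 0 and 318. The 95% interval of the difference lay within 1.5-fold of no change for 12259 genes (71.3%) and within 2-fold for 15029 genes (87.4%), so for the remaining genes a change of that size was not excluded at this depth and number of libraries.

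The genes with the smallest p without pairs are described as values, since the adjusted p of each was 1.00 (edgeR). Rfx3, which encodes a transcription factor of ciliated cells, had 4048, 4556 and 5421 counts in WT libraries and 5835, 7271 and 5960 in het libraries, without overlap (log2 difference 0.51, SE 0.14). Tex15 had 3935, 4757 and 4109 counts in WT libraries and 4679, 6029 and 4764 in het libraries, without overlap in CPM (0.35, SE 0.12). Both genes were highest in het-2, the library with the highest OR total. Slc26a4, the anion exchanger pendrin, had 58, 42 and 45 counts in WT libraries and 69, 60 and 98 in het libraries (0.73, SE 0.24). Gria3, an AMPA receptor subunit, was higher by 0.48 with overlapping groups, and Pbld1 (8 to 9 counts in WT, 18 to 23 in het), Chrna3 and Snord4a were low in counts. Chrna3 had 44 counts in het-2 against 5 and 13 in het-1 and het-3. Snord4a lies within Rpl23a, whose reads it may share.

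On the lower side Lmbr1l had 1514, 1452 and 823 counts in WT libraries and 753, 730 and 880 in het libraries (log2 difference -0.58, SE 0.15). In CPM, WT-3 lay among the het libraries, so the groups overlapped. Itgam, an integrin subunit of myeloid cells, had 144, 160 and 135 counts in WT libraries and 76, 89 and 95 in het libraries, without overlap (-0.67, SE 0.18). Spib, a transcription factor of lymphoid and M cells, had 114, 86 and 75 counts in WT libraries and 41, 40 and 53 in het libraries, without overlap (-0.95, SE 0.28). Ogfod3 (-0.43) and Polr2m, a subunit associated with RNA polymerase II (-0.31), were lower by less with smaller errors (SE 0.14 and 0.10). Polr2m had 2637 to 3350 counts in WT libraries and 2180 to 2343 in het libraries. Cd3d, 2310069B03Rik, Map2k3os, Gm1943 and Skint3 had at most 78 counts in any of the 6 libraries.

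With same-numbered libraries as pairs 3 of 16877 genes (0.0178%) passed the test at an adjusted p under 0.05, and 1112 genes had an unadjusted p under 0.05, of which 543 were higher and 569 lower. The median SE of a log2 difference was 0.10 with pairs and 0.14 without. None of the 3 genes was a receptor gene. Fos, an immediate early transcription factor on chromosome 12, rose, and Crisp1, a cysteine-rich secretory protein on chromosome 17, and Eps8l1, an actin regulator of epithelial cells on chromosome 7, fell.

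Fos had 176, 111 and 116 counts in WT libraries and 300, 181 and 379 in het libraries, and every het library lay above every WT library in CPM. The paired log2 difference was 1.15 (SE 0.17, edgeR adjusted p = 0.036). Crisp1 had 2831, 1542 and 519 counts in WT libraries and 1198, 944 and 378 in het libraries. It varied more between replicate numbers than between genotypes, and the groups overlapped although het was lower in each pair (paired log2 difference -0.73, SE 0.09, edgeR adjusted p = 0.028). Eps8l1 had 863, 890 and 1320 counts in WT libraries and 474, 575 and 992 in het libraries, again with overlap and with het lower in each pair (-0.55, SE 0.08, edgeR adjusted p = 0.036).

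Without pairs the same genes had edgeR p-values of 0.0149 (Fos), 0.314 (Crisp1) and 0.179 (Eps8l1) before adjustment. The calls depended on which libraries were in the fit. With the replicate number in all 10 libraries none of the 3 was called (edgeR adjusted p 0.101 for Fos, and 0.995 and 0.993 for Crisp1 and Eps8l1). In that fit the homo libraries differed in sex from the WT and het libraries of the same number, and what part this had in the adjusted p-values was not tested. Homo-1 had 18079 counts of Xist, while homo-2 and homo-3 had 6636 and 6053 counts of the Y genes. Without replicate 1, the number with Y gene counts in WT and het libraries, 0 genes were called with pairs. Without replicate 2 16 genes were called, and without replicate 3 1469 genes, of which 758 were higher and 711 lower. Each of these fits has 2 pairs and 1 residual degree of freedom per gene, and none of them called a Taar gene. DESeq2 with pairs called 6 genes, which were these 3 and Gm14743, 5430402E10Rik and Ptov1, named after their values were seen.

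**Figure D4:**
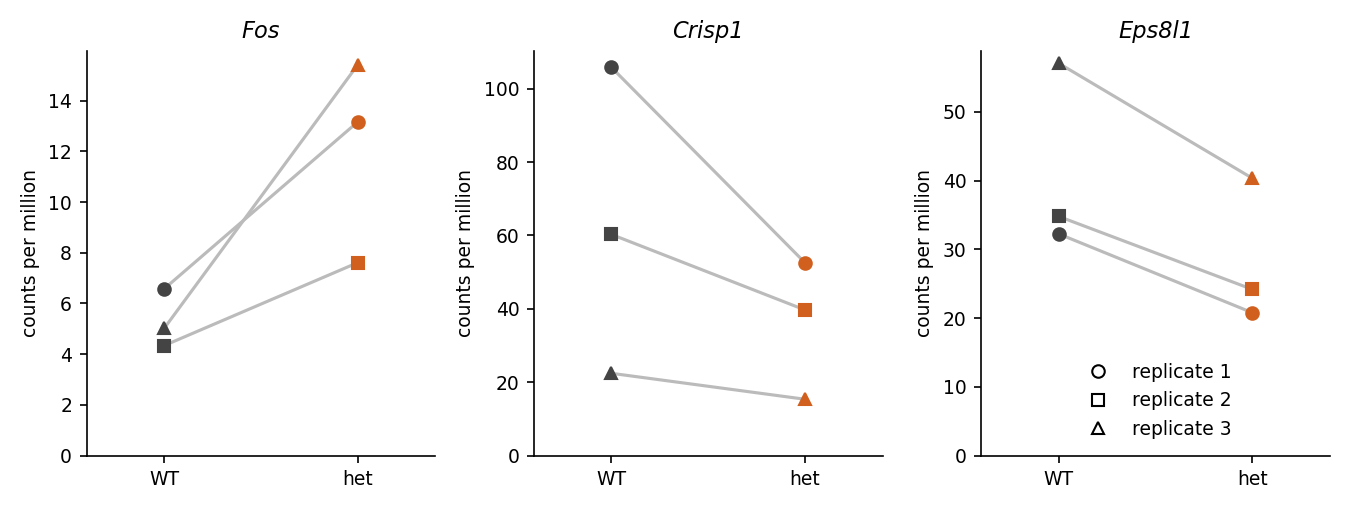
CPM of Fos, Crisp1 and Eps8l1 in each WT (grey) and het (orange) library, with lines joining the same replicate number and axes from 0. Fos is higher in het in all 3 pairs and without overlap of the groups, while Crisp1 and Eps8l1 are lower in all 3 pairs with overlapping groups.

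Immediate early genes, which neurons and other cells induce within minutes of a stimulus, were mostly higher in het mice. The median of the list rested on het-3. Of 21 tested, Fos among them, 18 were higher and 3 lower, with a median log2 difference of 0.32 that was -0.04 without het-3. At an unadjusted p under 0.05 1 was higher without pairs (Fos) and 4 with pairs (Fos, Fosb, Nr4a1 and Dusp1), and none was lower. Of all genes tested 1.05% were higher at this threshold without pairs and 3.22% with pairs. Nr4a1 had 699, 707 and 594 counts in WT libraries and 855, 655 and 1137 in het libraries, and Egr1 410, 378 and 327 counts in WT libraries and 532, 323 and 786 in het libraries. For both genes het-3 was the highest of the 6 libraries, het-1 was also above the WT range and het-2 was not. Egr1 was at 23.34 CPM in het-1, against 14.14 to 15.32 CPM in WT libraries. Fosb and Dusp1 were likewise above the WT range in het-1, at 1.755 and 67.42 CPM. The median log2 difference of the list within pairs was 0.10, -0.11 and 0.57 for replicates 1, 2 and 3.

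Genes of the OSNs themselves had few members past the test and levels near WT. Among 15 signal transduction genes, which turn receptor activation into a current, none passed an unadjusted p under 0.05 without pairs, and 1 was higher (Slc24a4, a calcium exchanger) and 1 lower (Gng13, a G protein gamma subunit) with pairs, where 3.22% of all genes were higher and 3.37% lower. Gnal, the olfactory G protein, was at 105.1% of WT, Adcy3, the adenylyl cyclase it activates, at 97.9%, and Cnga2, the cyclic nucleotide-gated channel subunit, at 107.8%. Omp, the marker of mature OSNs, had 119996, 108679 and 109529 counts in WT libraries and 90047, 84950 and 119544 in het libraries, at 91.9% of WT (77.2% to 109.3%). Scaled to 12 mature OSN markers, a scale also chosen after the values were seen, the Taar total was 96.3% of WT (78.3% to 118.5%). Of 17 genes of receptor transport and receptor choice none passed without pairs, and Ebf2 was higher and Emx2 lower with pairs. Of 12 immature OSN markers none passed in either fit, and the 12 dorsal and ventral zone genes likewise had none. Of 13 stem and progenitor genes Top2a, a topoisomerase of dividing cells, was higher without pairs (113.0% of WT), and with pairs Sox2 was lower.

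Most markers of immune cells had lower values in het than in WT libraries, and none passed after adjustment over all genes (edgeR). Of 18 myeloid genes tested 14 were lower, with a median log2 difference of -0.30, and 4 were lower at an unadjusted p under 0.05 without pairs (Itgam, C1qb, C1qc and S100a8) and 5 with pairs, the same 4 and S100a9, and none was higher. Of all genes 0.866% were lower at this threshold without pairs and 3.37% with pairs. Within pairs the median of the list was -0.09, -0.56 and 0.01 for replicates 1, 2 and 3. C1qb, a complement component of macrophages, had 488, 540 and 367 counts in WT libraries and 324, 342 and 358 in het libraries (log2 difference -0.36, SE 0.13). S100a8, a neutrophil protein, had 160, 217 and 185 counts in WT libraries and 73, 111 and 161 in het libraries (-0.64, SE 0.24). The macrophage genes Csf1r, Cx3cr1, Adgre1 and Cd68 had log2 differences of -0.09, 0.12, 0.05 and 0.00. The summed myeloid list was 543 to 721 CPM in WT (mean 642) and 460 to 958 CPM in het libraries (mean 635), and its highest value, in het-1, came with 16706 counts of Ltf, which glands also express.

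Lymphoid genes were few and low. Of 7 tested 6 were lower, 2 of them at an unadjusted p under 0.05 in both fits, against 0.866% of all genes lower without pairs and 3.37% with pairs. Within pairs the median of the list was -0.36, -0.86 and 0.04. Cd79b, a part of the B cell receptor complex, had 27, 31 and 42 counts in WT libraries and 12, 9 and 25 in het libraries, with het lower in each pair. The summed lymphoid list was 6.46 to 9.93 CPM in WT and 4.0 to 6.30 CPM in het libraries. Without replicate 2 the median log2 difference was -0.11 for the myeloid list, and for the lymphoid list it moved from -0.88 to -0.27. Without WT-2 alone these medians were -0.20 and -0.47. The part that blood or immune cells in the dissected tissue had in these values was not tested.

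The other cell types of the MOE had few genes past an unadjusted p under 0.05 without pairs. Of all genes 1.05% passed as higher and 0.866% as lower without pairs, and 3.22% and 3.37% with pairs. With pairs larger shares of the supporting cell, motile cilia and interferon lists were higher than of all genes. Of 13 genes of sustentacular cells, the supporting cells that hold detoxifying enzymes, 11 were higher and 2 lower, with a median log2 difference of 0.10. None passed without pairs, and Fmo1, Ermn and Cyp2a4 were higher and Gstm1 lower with pairs. The 13 tested genes of motile cilia had a median log2 difference of 0.13, with none passing without pairs and 3 higher with pairs (Dnah9, Dnah11 and Cfap43). Secretory genes, odorant-binding lipocalins, microvillous cell and ionocyte genes and the necklace OSN genes had no member with an unadjusted p under 0.05 without pairs. With pairs the secretory list had Bpifb9a and Bpifb9b, abundant gland proteins, higher and Muc5ac and Klk14 lower, and the lipocalin list had Obp1a lower. Of 19 interferon and antigen presentation genes 10 were higher and 9 lower, with a median log2 difference of 0.05 that was 0.31, -0.64 and 0.13 within the pairs of replicates 1, 2 and 3. At an unadjusted p under 0.05 Ifit3 was higher without pairs and Ifit1, Ifit2, Ifit3 and Ifi44 with pairs, and none was lower. The antigen presentation genes H2-Ab1, Cd74, H2-Aa and H2-D1 had log2 differences of -0.73, -0.65, -0.36 and -0.25, none past that threshold in either fit. Ifit3 had 185, 319 and 146 counts in WT libraries and 357, 277 and 283 in het libraries, with WT-2 above 2 of the het libraries.

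Genes of bone, blood, muscle and respiratory and squamous epithelium stand here for tissue other than the sensory epithelium. How much of such tissue each dissection held was not tested. These gene lists had no member with an unadjusted p under 0.05 without pairs. With pairs, where 3.37% of all genes were lower, Bglap3, a bone matrix gene with near-identical copies, and Slc4a1, a red cell anion exchanger, were lower. The summed bone list was 6022 to 10810 CPM in WT and 5393 to 9103 CPM in het libraries. It differed between libraries of a genotype more than between genotypes, and its median log2 difference was -0.16, with 13 of 15 genes lower. The list of respiratory and squamous epithelium holds Crisp1 and Eps8l1, which were put there with their values known, and no other member had an unadjusted p under 0.05.

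A weak gradient over all genes followed base composition. When the 16577 tested genes with a GENCODE transcript (96.4%) were divided into quintiles by GC content, the median log2 difference was 0.08 in the lowest quintile (29.6% to 43.0% GC) and -0.07 in the highest (55.3% to 74.6% GC), with intermediate values between. The same order was seen within each pair, from 0.08, 0.10 and 0.03 in the lowest to -0.06, -0.10 and -0.04 in the highest quintile for replicates 1, 2 and 3. With pairs the lowest quintile held 280 genes that were higher and 24 lower at an unadjusted p under 0.05, and the highest quintile 10 higher and 242 lower. By transcript length the shortest quintile was lower (-0.07 and -0.09) and the longest higher (0.06 and 0.07) in replicates 1 and 2, and in replicate 3 the values were 0.00 and -0.02.

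Smoothing out GC content and length moved the medians of the OR, ribosomal and respiratory chain genes closer to 0, and moved those of some other lists little. OR transcripts had a median GC content of 38.8%, against 49.2% for all genes, and 862 of the 3316 genes of the lowest GC quintile were OR genes. Without the OR genes the median of that quintile was 0.07, and the gradient was also there without them. GC content and length were then smoothed out of each library, a correction chosen after the values were seen. The OR median went from 0.16 to 0.07. Without pairs 43 OR genes were higher and 9 lower at an unadjusted p under 0.05, beside 219 and 204 of all 17197 genes. With pairs 49 of 1029 OR genes were higher and 6 lower after smoothing, beside 333 and 398 of 16873 genes. The genes of cytoplasmic ribosomal proteins, with a median transcript length of 1094 bases against 3265 for all genes, had 64 of 79 lower and a median of -0.08, and with pairs 22 were lower and none higher, against 3.37% of all genes lower and 3.22% higher. The genes of the mitochondrial respiratory chain (median length 1046 bases) had 64 of 76 lower and a median of -0.10, with 22 lower with pairs. These 2 lists were chosen after the values were seen. Within the pairs of replicates 1, 2 and 3 the medians were -0.15, -0.12 and 0.01 for the ribosomal genes. For the respiratory chain genes they were -0.225, -0.13 and 0.00. The GC content of both lists was near that of all genes (median 50.9% and 50.2%), and after smoothing their medians were -0.03 and -0.05. With pairs and smoothing 13 ribosomal genes were lower and 1 higher, and 8 respiratory chain genes were lower and 0 higher. Of 16873 genes 398 were lower and 333 higher in that fit. The medians of the lymphoid, immediate early and myeloid lists went from -0.88 to -0.92, from 0.32 to 0.34 and from -0.30 to -0.25. The Taar genes, with a median GC content of 47.8%, had a median of -0.12 before and -0.09 after smoothing, and the Taar total kept a log2 difference of -0.09. In the paired fit the smoothing left Crisp1 as the single call (edgeR adjusted p = 0.021), with adjusted p-values of 0.059 for Fos and 0.196 for Eps8l1.

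**Figure D5:**
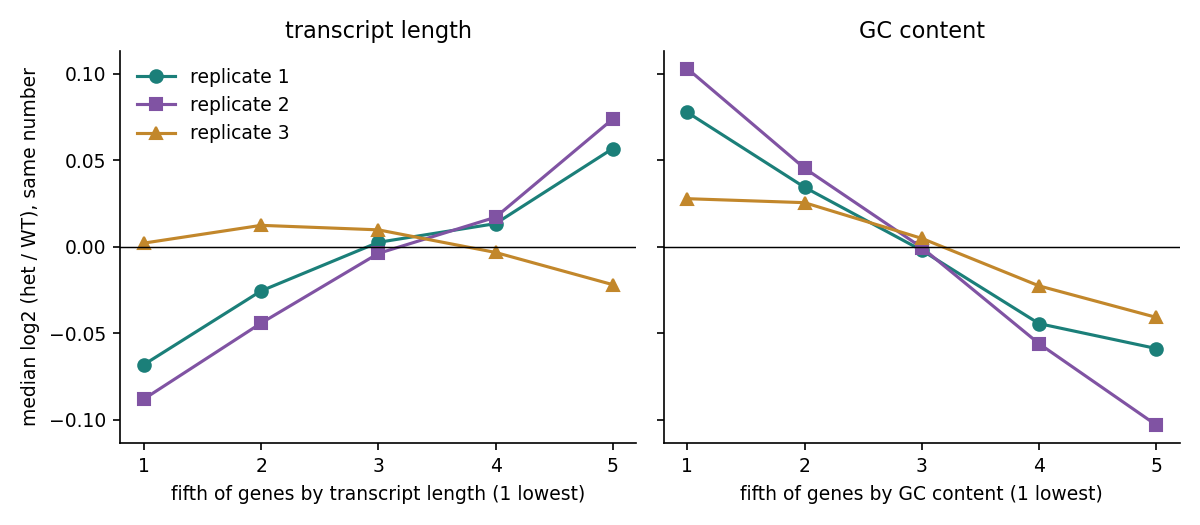
Median log2 ratio of het to WT for quintiles of the tested genes, ordered by length (left) and by GC content (right) of the longest transcript, for each same-numbered pair of libraries. By GC content all 3 lines fall from between 0.03 and 0.10 to between -0.10 and -0.04, while by length the lines of replicates 1 and 2 rise and that of replicate 3 falls from 0.00 to -0.02.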

How the data were processed

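RNA-seq libraries (poly(A)-selected, directional kit) of MOE from 3 WT, 3 het and 4 homo mice were grouped by sample title. The authors trimmed reads with Trimmomatic 0.36, aligned them to mm10 with HISAT2 2.1.0 and counted them per gene with featureCounts (Subread 1.6.2); the deposited raw counts were used here, and the deposited table of normalized signal was not used. Annotation, strand setting and treatment of multiply aligned reads are not given in the sources used here. Of 24421 rows, 3137 had no count and 27 had date-like names.

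Counts were analysed with edgeR 4.0.16 in R 4.3.3: filterByExpr (minimum count 10, minimum total count 15), TMM scaling and robust quasi-likelihood fits with two-sided F tests, with Benjamini-Hochberg adjustment across the genes of each fit. The unpaired fit held all 10 libraries with genotype alone (17197 genes), the paired fit the 6 WT and het libraries with genotype and replicate number (16877 genes). Same-numbered libraries count as pairs because the correlation of their deviations was above 0.1 in all 3 pairs, which comes from the data and not from a label. On autosomal genes it was 0.26, 0.402 and 0.316. For the Taar total the 14 olfactory Taar genes were summed into 1 row and tested against 0 and -1. Chi-square divided by its degrees of freedom was 22.7 to 37.6 between libraries of a genotype, so none was a copy of another. Positions are 1-based mm10 coordinates of GENCODE release 21, in which 95.4% of symbols had a single position. Intervals are 95%, and precision is limited by 3 libraries per group. Fits were also run on simulated counts with the same dispersion for all genes and no effect of replicate number. Those runs cannot show how the paired fit handles such an effect.

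The genes, lists and tests were chosen with earlier results of these data known. The text names the Taar genes and their neighbours, the 10 higher and 10 lower genes with the smallest unpaired p, genes called with pairs, the leading member of each list, 3 OR genes in each direction and sex and tissue markers. Other members of lists are named where they passed an unadjusted p under 0.05 in either fit or to show a list's spread, and 1 list member is not reported here by name. Alternatives were DESeq2 1.42.0, other scalings and filters, the replicate block, leaving out libraries or pairs, and GC content and length smoothing.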

Additional observations from a re-analysis of the deposited data

How the results depend on the processing

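The Taar total kept its direction and its side of the threshold under each alternative run: over the fits that left out a library or a pair its log2 difference from WT was -0.17 to -0.02 and that from the 50% level 0.83 to 0.98. The number of Taar genes above the 50% level was 9, and 5 to 9 over those fits, with 5 without replicate 2. The number of genes with an unadjusted p under 0.05 was 330. It was 180 to 1055 over those fits (1055 without het-3, 629 without WT-2, 531 without WT-3, 207 without WT-1, 195 without het-2, 854 without replicate 3 and 180 without replicate 1), 1112 with the replicate block in WT and het libraries and 701 with the block in all 10 libraries. The count of called genes without pairs was 0 in all of these except with the block in WT and het libraries (3). With pairs it was 3, against 11 with no filter, 6 with DESeq2, 0 with the replicate block in all 10 libraries, 0 with no replicate block, 1 with GC content and length smoothed, and 0 to 1469 with a pair left out. Over these alternatives 17 named genes changed direction somewhere. With a library or pair left out the lowest and highest log2 differences were -0.077 and 0.54 for Taar4, -0.66 and 0.056 for Taar5, -0.21 and 0.12 for Taar7b, -0.22 and 0.20 for Taar7d, -0.40 and 0.34 for Taar8b, -0.060 and 0.081 for Slc18b1, -0.048 and 0.070 for Stx7, -0.11 and 0.10 for Moxd1, -0.081 and 0.040 for Adcy3, -0.0053 and 0.14 for Gnal, -0.34 and 0.082 for Gng8, -0.43 and 0.11 for Ms4a6c, and -0.46 and 1.05 for Xist. For the Y genes, where WT-1 and het-1 are the only libraries with counts, they were -12.0 and 9.97 for Ddx3y, -9.76 and 10.5 for Eif2s3y, -11.2 and 11.6 for Kdm5d and -11.1 and 11.2 for Uty. With GC content and length smoothed the values were 0.019 for Taar8b, -8.247e-05 for Slc18b1, -0.048 for Stx7 and 0.021 for Adcy3. The cause of these shifts was not tested. With 3 libraries per group and 19 to 141 counts in each WT library for the Taar genes other than Taar8, single Taar genes have SEs of 0.22 to 0.43 on the log2 scale.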
